A study of Caenorhabditis elegans with 6 samples.

Results

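The genes described here are 14 unnamed genes of Caenorhabditis elegans whose RNA was almost absent from neuronal nuclei of control larvae and was present in all libraries of a mutant labelled null for 6 CUT homeobox genes. They were chosen from 17559 features with a cosmid-type symbol, in a table of 41862 features. Such a symbol (F07E5.12, for example) joins the name of the genomic clone to a running number, and a gene keeps it alone until it receives a genetic name. A gene was taken when each of the 3 control libraries stood at or below 5 normalized counts and each of the 3 mutant libraries at or above 15. These values chose the genes, so the difference between the groups is given for them as a description with no test.

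RNA was sequenced from nuclei pulled down from L1 larvae, the stage that hatches from the egg, with the INTACT method, in which a transgene tags the nuclei of chosen cells, here neurons. Libraries were made from total RNA with the Tecan Universal RNA-seq kit. The controls were strain OH16748, with a wildtype genotype and the tagging transgene otIs790. The mutant was strain OH17055, which carries a UPN INTACT tag as well and is labelled null for the CUT genes ceh-38 on chromosome II, ceh-44 on III, ceh-48 on IV, and ceh-39, ceh-21 and ceh-41 on X. Both groups were grown on enriched peptone plates with NA22 bacteria and synchronised by egg preparation, and each group is 1 strain, so a difference of strain history cannot be told apart from the 6 targeted genes. The labels do not say whether the replicates were separate cultures, so p-values measure the spread between these samples, which may be technical.

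CUT homeobox proteins are transcription factors that bind DNA through a homeodomain and a CUT domain, and in the worm they act in neurons. Genes that are off in a tissue can lack their activators or can be held off by chromatin that carries repressive histone marks and by small RNAs that guide Argonaute proteins to nascent transcripts. The annotation used here calls all 14 genes protein coding. It was read for names, biotypes, lengths and gene order only, so the functions of the 14 genes were not looked up.

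The libraries held 15500882 to 20844986 reads, and 3 reads were worth 2.44 to 3.79 normalized counts depending on the library. The targeted genes were looked at first, since they check the labels. Levels of ceh-21 were 832 to 1098 normalized counts in the controls and 0, 47.95 and 3.38 in mutant replicates 1, 2 and 3, and ceh-39 went from 769 to 877 down to 5.06, 43.9 and 2.53. In limma's test over all genes, with Benjamini-Hochberg adjustment, 5 of the 6 targeted genes were lower in the libraries labelled mutant, and ceh-44 was higher (log2 difference 0.82, SE 0.19, adjusted p 0.0179). The label null does not state an RNA level, so the ceh-44 RNA neither bears out nor contradicts it. The word mutant stands here for the library labelled mutant. Leaving out control replicate 2, control replicate 3 and mutant replicate 3 in turn ended the ceh-44 call (limma adjusted p 0.0808, 0.0704 and 0.0602), and leaving out control replicate 1 and mutant replicate 3 ended that of ceh-38 (0.0554 and 0.0615).

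The word silent needs a qualification. Of the 42 control values of the 14 genes, 19 were at 0 reads, 6 at 1 read, 10 at 2 reads and 7 at 3 to 5 reads. A read was thus seen in at least 1 control library for 13 of the 14 genes, and C16C4.18 was the exception, with 0 reads in each. In all, the genes had 52 reads in the 3 controls and 2365 in the 3 mutants. Their levels summed to 16.3, 21.9 and 15.5 normalized counts in control replicates 1, 2 and 3, and to 795, 701 and 738 in mutant replicates 1, 2 and 3. The sums of the mutant libraries lay close together. Mutant replicate 2, which kept the most RNA of ceh-21 and ceh-39, had the lowest of them in the deposited scaling. With equal totals mutant replicate 1 was the lowest, so nothing is read from this order. In bulk nuclei, fewer cells of a type and less RNA per cell cannot be told apart, nor can more of either.

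**Figure D1:**
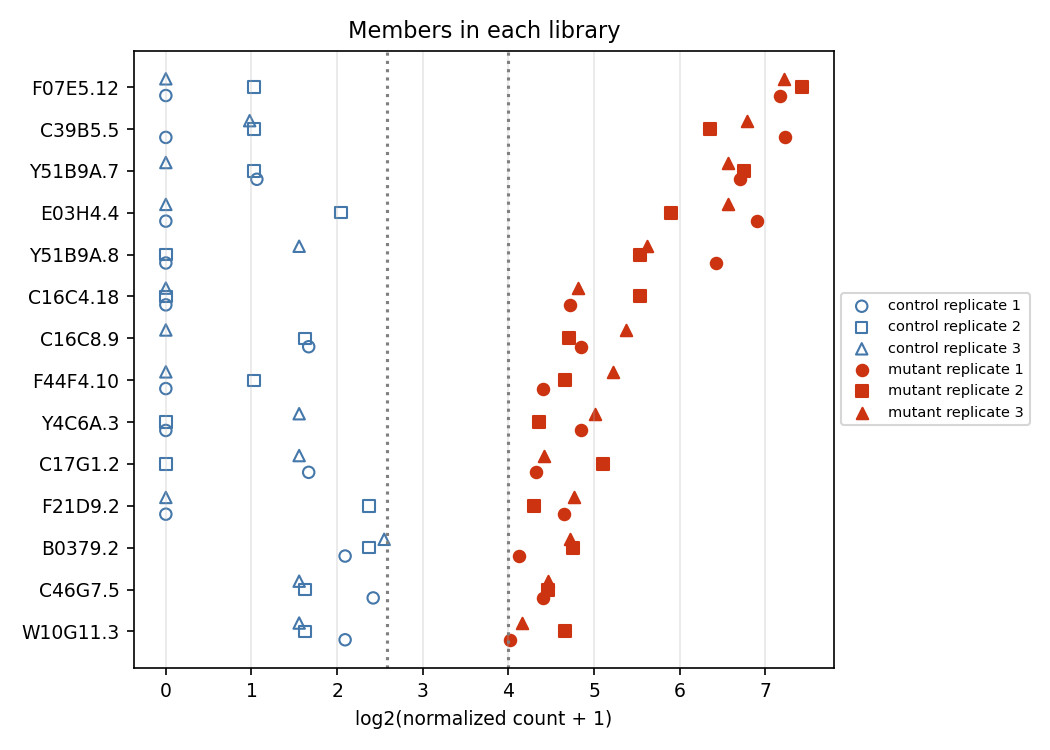
Level of each of the 14 genes in each library, as log2(normalized count + 1). Open blue symbols are the 3 controls, filled red symbols the 3 mutants, and the dotted lines mark the limits of the rule, 5 and 15 normalized counts; 5 genes stand apart with mutant means of 59.4 to 154, and the other 9 lie at 18.8 to 32.6.

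The mutant level split the genes into a group of 5 with means of 59.4 to 154 normalized counts and a group of 9 with means of 18.8 to 32.6. F07E5.12, on chromosome II, had the highest mutant level of the 14. Its normalized counts were 0, 1.04 and 0 in control replicates 1, 2 and 3 and 143, 171 and 148 in mutant replicates 1, 2 and 3, so that 1 control read stood against 499 mutant reads. The ratio of the summed reads, each divided by the summed size factors of its group, was 452. Its counting interval was 80.8 to 17906 (exact binomial, 95%), which covers counting error only. The rule chose the genes by these same values, so the ratios and intervals of all 14 are descriptions and can overstate the difference. The mutant libraries of F07E5.12 were close to each other, with a coefficient of variation (SD over mean) of 9.95%.

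C39B5.5, on chromosome III, followed with 0, 1.04 and 0.971 normalized counts in the controls and 149, 80.5 and 109.7 in the mutants. Here mutant replicate 1 was the highest and replicate 2 the lowest, 1.85-fold apart. The ratio of summed reads was 157 (counting interval 43.2 to 1304).

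Y51B9A.7 and Y51B9A.8 are next to each other on the same strand of chromosome II and are the only pair of the 14 that are neighbours. Y51B9A.7 had 1.09, 1.04 and 0 normalized counts in the controls and 103.6, 106 and 93.7 in the mutants. Y51B9A.8 had 0, 0 and 1.94 in the controls and 84.7, 45.5 and 48.1 in the mutants. The pair differed in how evenly the mutant libraries shared the signal, with a coefficient of variation of 6.62% for Y51B9A.7 and 36.9% for Y51B9A.8, the highest of the 14. The ratios of summed reads were 147 (counting interval 40.3 to 1218) and 81.6 (22.3 to 679).

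E03H4.4, on chromosome I, is the longest of the 14, with 804 codons in 14 exon blocks. Its normalized counts were 0, 3.13 and 0 in the controls and 118.8, 58.5 and 93.7 in the mutants, and all 3 control reads fell in replicate 2. The ratio of summed reads was 83.7 (counting interval 28.4 to 408). As in C39B5.5 and Y51B9A.8, the level was highest in mutant replicate 1 and lowest in replicate 2.

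Of the 9 genes with lower levels, 3 had at most 2 control reads in all. C16C4.18 had 0 reads in every control and 25.3, 45.5 and 27.01 normalized counts in mutant replicates 1, 2 and 3. With a floor of 3 reads over the control group put in place of 0, its ratio of summed reads was 32.6. With the 0 reads as counted, the lower limit of the exact counting interval was 26.1. F44F4.10 had 0, 1.04 and 0 in the controls and 20.2, 24.4 and 36.3 in the mutants. Y4C6A.3 had 0, 0 and 1.94 in the controls and 27.8, 19.5 and 31.2 in the mutants. Mutant replicate 2 was the highest for C16C4.18 and replicate 3 for F44F4.10 and Y4C6A.3. The ratio of summed reads was 80.7 for F44F4.10 (counting interval 14.1 to 3223) and 37.6 for Y4C6A.3 (10.1 to 316). C16C8.9, with 4 control reads, had 2.18, 2.09 and 0 normalized counts in the controls and 27.8, 25.2 and 40.5 in the mutants, again highest in replicate 3, and a ratio of 22.9 (counting interval 8.67 to 85.6).

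The remaining 5 genes were nearer to the limits. C17G1.2, the only one on the X chromosome, had 2.18, 0 and 1.94 normalized counts in the controls and 18.96, 33.3 and 20.3 in the mutants. F21D9.2, the only one on chromosome V, had 0, 4.17 and 0 in the controls and 24.02, 18.7 and 26.2 in the mutants. For C17G1.2 mutant replicate 2 was the highest, and for F21D9.2 that replicate was the lowest. The ratios of summed reads were 18.1 (counting interval 6.81 to 68.2) and 16.5 (6.19 to 62.4).

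B0379.2 had 3.27, 4.17 and 4.85 normalized counts in the controls and 16.43, 26.01 and 25.3 in the mutants. C46G7.5 had 4.36, 2.09 and 1.94 in the controls and 20.2, 21.1 and 21.1 in the mutants. W10G11.3 had 3.27, 2.09 and 1.94 in the controls and 15.2, 24.4 and 16.9 in the mutants. These 3 genes had reads in every control library and the smallest log2 differences of the 14, at 2.19, 2.58 and 2.52. Their ratios of summed reads were 5.67 for B0379.2 (counting interval 3.06 to 11.5), 7.59 for C46G7.5 (3.64 to 18.3) and 8.03 for W10G11.3 (3.67 to 20.8), the lowest of the 14. C46G7.5 had the most even mutant libraries, with a coefficient of variation of 2.48%.

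The values around the limits show how the choice was made. Just inside, the lowest mutant values were 15.2 for W10G11.3, 16.43 for B0379.2 and 18.7 for F21D9.2, and the highest control values were 4.85 for B0379.2, 4.36 for C46G7.5 and 4.17 for F21D9.2. Just outside on the control side were Y71A12B.10, Y70C5C.1 and R07B7.12, each with 5.21 in control replicate 2 and with mutant minima of 18.96, 25.2 and 22.8. Just outside on the mutant side were C35D10.3, Y26D4A.21 and Y51B9A.14, with mutant minima of 13.8, 13.5 and 12.2. Y51B9A.14 adjoins the pair Y51B9A.8 and Y51B9A.7 and missed the rule through mutant replicate 2 alone.

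**Figure D2:**
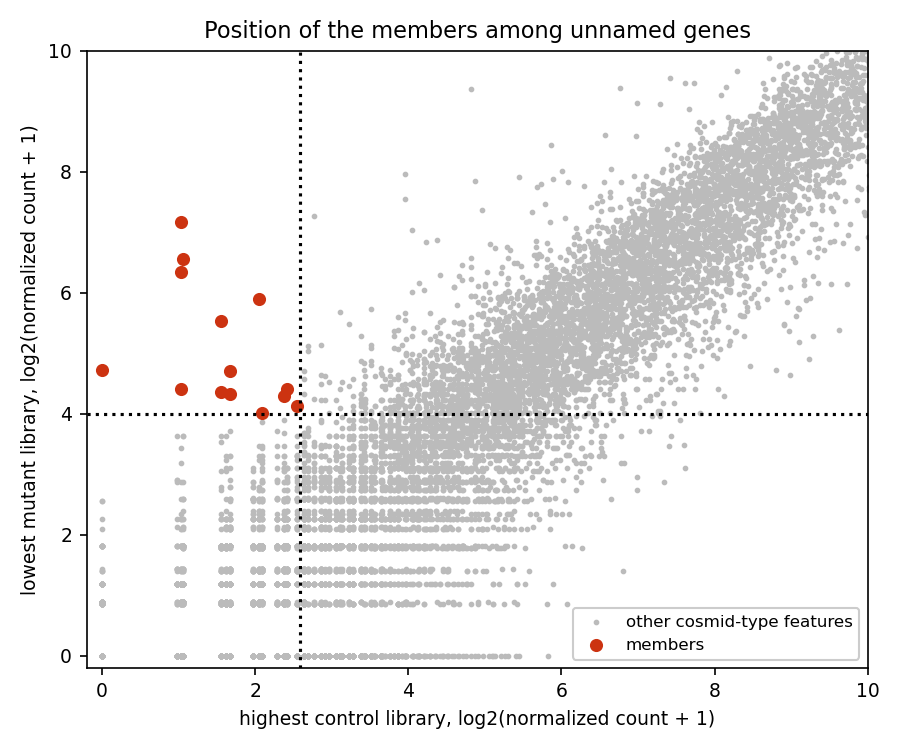
Each point is a feature with a cosmid-type symbol and at least 1 read; the x axis is its highest control library and the y axis its lowest mutant library, as log2(normalized count + 1), with both axes ending at 10. The 14 genes (red) fill the upper left corner set by the dotted limits of 5 and 15 normalized counts, and B0379.2, W10G11.3 and F21D9.2 lie close to them.

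The 14 genes were 0.0797% of all cosmid-type features and 0.201% of the 6966 that had every control at or below 5. With the limits exchanged between the groups, 3 cosmid-type features qualified, namely T26C11.9, T01G6.1 and T16G1.18. All 14 genes passed the filter of a mean of 10 normalized counts, which a gene this low in the controls could do only through its mutant libraries, and all 14 were past limma's threshold, where 7.56% of the 17900 tested features, and 6.42% of the 8446 tested cosmid-type ones, were called higher. The rule used this contrast, so nothing is read from that count. On the log2(normalized count + 1) scale their differences ran from 2.19 to 6.93 with a median of 4.32, beside a median of −0.02 over all tested genes. Without mutant replicate 3 the count was 8: 5 of the 14 then fell below the filter and were not tested, and B0379.2 missed the threshold.

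The coefficient of variation among the 3 mutant libraries ran from 2.48% to 36.9% over the 14 genes, with a median of 26.2%. The rule asked for 15 in every mutant library, which keeps out low genes with a wide spread, so these values are not set beside those of other genes. The highest library was mutant replicate 1 for 3 genes, replicate 2 for 7 and replicate 3 for 4. Among 5548 coding features with a mutant mean in the range of the 14, the shares were 23.0%, 42.0% and 34.9%. The counts of the 14 are near these shares, so nothing is read from them.

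Levels between genes were compared per length of exon. Y51B9A.7 had the highest mutant level per kilobase, at 240.0 ± 15.9 normalized counts (SD, n = 3). C39B5.5, F07E5.12 and Y51B9A.8 followed at 148 ± 45.1, 142 ± 14.2 and 118.9 ± 43.8 (SD, n = 3 each), and these 3 did not differ beyond their spread. E03H4.4, the fourth by count, dropped to 37.4 ± 12.5 per kilobase (SD, n = 3), behind C16C4.18 at 66.1 ± 22.7 and C16C8.9 at 59.9 ± 15.8. The other 7 genes lay between 17.7 for Y4C6A.3 and 36.9 for C46G7.5. The median over 14976 coding features with a mean of at least 10 was 157 normalized counts per kilobase in the mutants, and Y51B9A.7 was the only one of the 14 above it. The other 13 lay below the median of the coding features, also in the mutant.

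The annotated coding regions of the 14 genes ran from 51 codons in C46G7.5 and 59 in C16C4.18 to 804 in E03H4.4, with a median of 196. The median was 251.5 codons for all 9536 coding genes with a cosmid-type symbol and 152 for the 1933 of these with every control at or below 5. The genes had 2 to 14 exon blocks with a median of 4, against medians of 5 and 3 in those sets. In length and exon number the 14 genes therefore lay between the comparison sets, and 6 were on the forward and 8 on the reverse strand.

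By chromosome, 7 of the 14 genes were on II, namely F07E5.12, Y51B9A.7, Y51B9A.8, C16C4.18, C16C8.9, F44F4.10 and W10G11.3. Chromosomes I (E03H4.4, B0379.2) and IV (Y4C6A.3, C46G7.5) held 2 each and III, V and X held 1 each. Chromosome II thus held 50% of them, beside 20.4% of the 1933 coding cosmid-type genes that were low in every control. Chromosome V held 26.9% of that set and 1 of the 14 genes. Of all tested genes on chromosome II 9.83% were called higher by limma, against 11.2% on I, 7.14% on V and 2.56% on X. No test was made of these shares, and Y51B9A.7 and Y51B9A.8, being neighbours, may not be independent.

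Distance from the targeted genes was counted in gene order. There were 11 on a chromosome with a targeted gene, and the number of coding genes in between ran from 62 to 1309. C39B5.5 was the nearest, 62 coding genes from ceh-44. C46G7.5 and Y4C6A.3 were 146 and 226 coding genes from ceh-48, and the genes of chromosome II were 555 to 1309 from ceh-38.

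The genes beside the 14 were tested in the fit over all genes. The nearest listed gene on either side gave 26 genes, of which 10 were high enough to be tested, and 3 of these rose and 0 fell (limma, Benjamini-Hochberg adjusted p under 0.05; 7.56% and 10.5% of all tested genes did so). Of the 3 that rose, Y51B9A.14 and F21D9.1 had control means under 10 and passed the filter only through their mutant libraries, which favours a rise, so the count is a description. These were 2 of the 4 tested neighbours with a control mean under 10, beside 19.7% of all such coding genes. Among the 6 tested neighbours with a control mean of at least 10, 1 rose, C39B5.6, beside 7.97% of all such coding genes. With the replicate number as a block, 1 of them fell, mgl-3 beside Y4C6A.3 (adjusted p 0.0414). C39B5.6, beside C39B5.5, had 96.9, 132 and 102 normalized counts in the controls and 277, 263 and 222 in the mutants, a log2 difference of 1.20 (SE 0.22, limma adjusted p 0.00604). Y51B9A.14 had 2.18, 2.09 and 0 in the controls and 35.4, 12.2 and 16.9 in the mutants, a log2 difference of 3.26 (SE 0.74, limma adjusted p 0.0161). F21D9.1, beside F21D9.2, had 6.53, 10.4 and 4.85 in the controls and 63.2, 26.8 and 37.1 in the mutants, a log2 difference of 2.36 (SE 0.48, limma adjusted p 0.0104). In each of these 3 genes every mutant library was above every control. They are named because limma called them, and the share of all tested genes so separated is not given here. Without mutant replicate 3 the call of Y51B9A.14 was lost (limma adjusted p 0.0563), which left 2 risers.

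Other neighbours were low or did not pass the test. C16C4.18, C16C8.9 and F07E5.12 had neighbours at or below 5.06 normalized counts in every library on both sides, the F-box genes fbxb-95 and fbxb-98 among them. At F44F4.10, the tubulin gene tba-4 did not pass the test (controls 64.9 ± 17.5 and mutants 85.7 ± 15.2 normalized counts, SD, n = 3, limma adjusted p 0.341). B0379.7, beside B0379.2, was higher in all 3 mutant libraries but did not pass either (log2 difference 1.10, SE 0.40, limma adjusted p 0.0825).

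A wider reach, the 5 coding genes on either side, was chosen after the data were seen, and the genes named from it were chosen after their values were seen. It gave 130 genes other than the 14, of which 63 were tested, 14 rose and 3 fell, or 22.2% and 4.76% of those tested. Of all tested coding genes 8.46% were called higher and 11% lower. Of the 14 risers, 7 had control means under 10 and were testable only through their mutant libraries, so the share is a description. Among neighbours with a control mean under 10, 7 of 10 tested genes rose (70%), beside 19.7% of the 618 such coding genes. Among those with a control mean of at least 10, 7 of 53 rose (13.2%), beside 7.97% of all such coding genes. Neither difference was tested. The median log2 difference of the 63 was 0.06, beside −0.02 over all tested genes. The 14 risers lay near 9 of the 14 genes. Around F07E5.12 all 4 tested neighbours rose: fbxb-35, F07E5.5, F07E5.13 and F07E5.9. All but F07E5.5 had control means under 10 and passed the filter only through the mutants, and the other 6 neighbours were below it, so nothing is read from this count. F07E5.13 had 5.44, 2.09 and 0 normalized counts in the controls and 49.3, 43.1 and 33.8 in the mutants, and it missed the rule by control replicate 1 alone. F07E5.9 had 3.27, 10.4 and 4.85 in the controls and 51.8, 77.2 and 52.3 in the mutants, a log2 difference of 3.20 (SE 0.47, limma adjusted p 0.00244). The call of F07E5.5, at an adjusted p of 0.0496, was lost under 7 of 18 alternatives.

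Around F21D9.2, the gene F21D9.11 also rose, from 13.1, 6.26 and 0 normalized counts to 48.03, 39.8 and 37.99 (log2 difference 3.19, SE 0.85, limma adjusted p 0.0291). Near Y4C6A.3, the yolk receptor gene rme-2 rose from 25.05, 33.4 and 25.2 to 87.2, 89.4 and 86.1 (log2 difference 1.63, SE 0.28, limma adjusted p 0.00472). Near Y51B9A.7, arrd-2 rose with a log2 difference of 2.74 (SE 0.79, limma adjusted p 0.0387). The call of arrd-2 was lost without any 1 of the 3 controls, and that of F21D9.11 without control replicate 2, mutant replicate 1 or mutant replicate 3. The 3 that fell were sra-12 near F44F4.10 (log2 difference −1.08, limma adjusted p 0.00873), nra-3 near C17G1.2 (−0.72, 0.0282) and W10G11.19 near W10G11.3 (−1.48, 0.0337). The call of sra-12 held in all 18 alternatives. Those of nra-3 and W10G11.19 were lost under 7 of 18 and 7 of 17. No gene rose within this reach of E03H4.4, B0379.2, C46G7.5, C16C4.18 or C16C8.9, and the last 2 had no tested neighbour there. The number of risers was 9 without control replicate 2, 9 without the third control and 8 without mutant replicate 3, in place of 14, and it was between 10 and 14 in the other fits that left out 1 library.

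**Figure D3:**
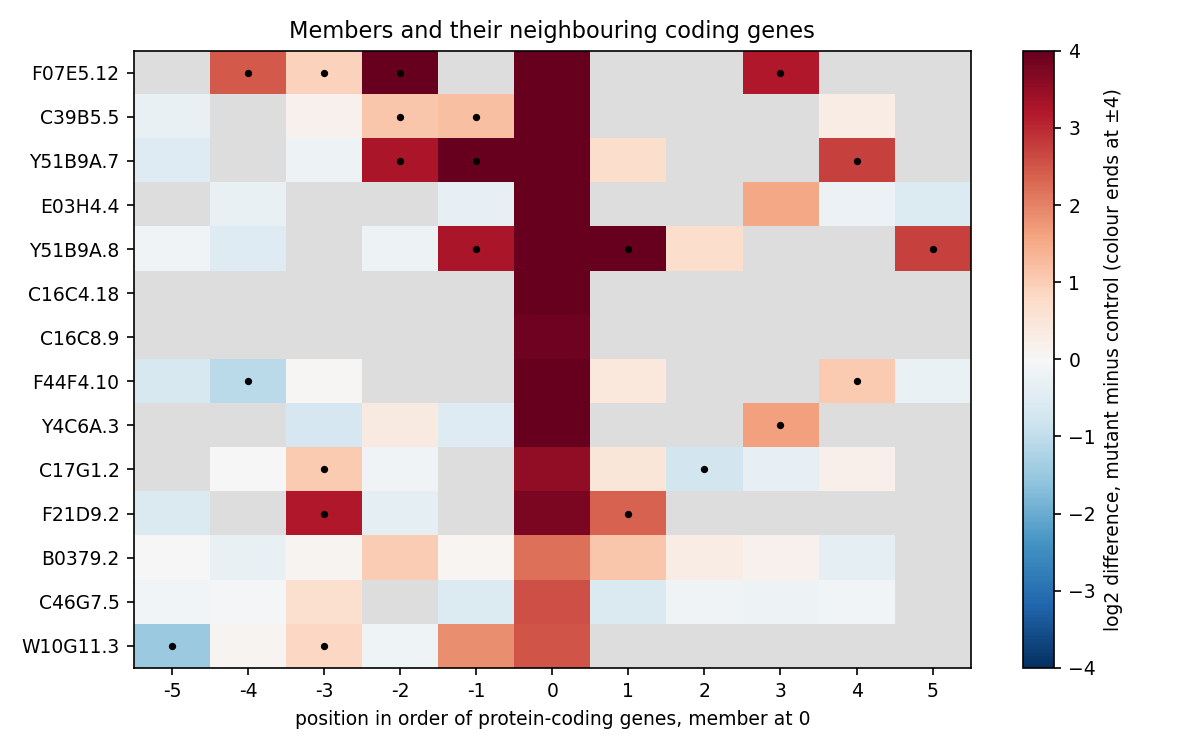
Each row is 1 of the 14 genes at position 0 with the 5 protein-coding genes on either side in genome order; colour gives the log2 difference (mutant minus control, colours end at 4 in either direction), grey marks genes below the filter or not in the table, and a black dot marks a neighbour past the limma threshold. The row of F07E5.12 shows 4 of 4 tested neighbours higher, 3 of them testable only through the mutants, while the rows of E03H4.4, B0379.2 and C46G7.5 show none.

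In 2 cases a gene of the set overlaps another gene. W10G11.3 lies wholly inside lgc-45, a ligand-gated ion channel gene on the opposite strand, and their exons share 0 bases. The levels of lgc-45 were 260.3, 155 and 236 normalized counts in the controls and 322, 445 and 366 in the mutants, a log2 difference of 0.82 (SE 0.24, limma adjusted p 0.0416). Mutant replicate 2 was the highest for both genes, but it was so for 7 of the 14 genes, so nothing is read from this match. The use of strand in the counting is not given in the sources used here, so nuclear reads of unspliced lgc-45 RNA and of W10G11.3 cannot be told apart. The lgc-45 call was lost under 6 of 18 alternatives, 5 of which each left out 1 library. W10G11.2, next to W10G11.3, had a log2 difference of 1.86 (SE 0.60, limma adjusted p 0.0573). Y4C6A.4 lies inside Y4C6A.3 on the opposite strand, shares 0 exon bases with it and had 0 to 7.30 normalized counts in the controls and 4.06 to 13.5 in the mutants.

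Chromatin and small-RNA genes were counted from a list of 35, called the silencing list here, since the 14 genes were nearly off in the controls. Not every gene of the list need act to keep genes off. Of the 34 that were tested, 12 rose and 2 fell, beside 8.46% and 11% of all tested coding genes. Of the 12, sago-2 had a control mean of 8.26 normalized counts and passed the filter only through its mutant libraries. The median log2 difference of the 34 was 0.47 beside −0.02 over all tested genes. The 2 that fell code for heterochromatin proteins of the HP1 family, which bind methylated histone H3. Levels of hpl-1 were 108, 114 and 159 normalized counts in the controls and 10.1, 26.01 and 14.4 in the mutants, a log2 difference of −2.92 (SE 0.38, limma adjusted p 0.00127). Levels of hpl-2 were 319, 338 and 311 in the controls and 99.9, 106 and 84.4 in the mutants, a log2 difference of −1.73 (SE 0.20, limma adjusted p 0.000732). For both genes the groups did not overlap, though the share of all tested genes so separated is not given here. Neither call was lost in any of the 18 alternatives.

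The other genes of the list with the smallest adjusted p rose. They were lin-35, the worm Retinoblastoma homologue (log2 difference 1.37, SE 0.18), the Dicer-related helicase gene drh-3 (1.23, SE 0.17) and the piRNA Argonaute gene prg-1 (1.54, SE 0.21), with limma adjusted p of 0.00127, 0.00160 and 0.00163. The number that rose was 19 with the replicate block, and leaving out control replicate 1, control replicate 3 and mutant replicate 3 in turn gave 7 each time. The relation of these factors to the 14 genes was not tested.

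**Figure D4:**
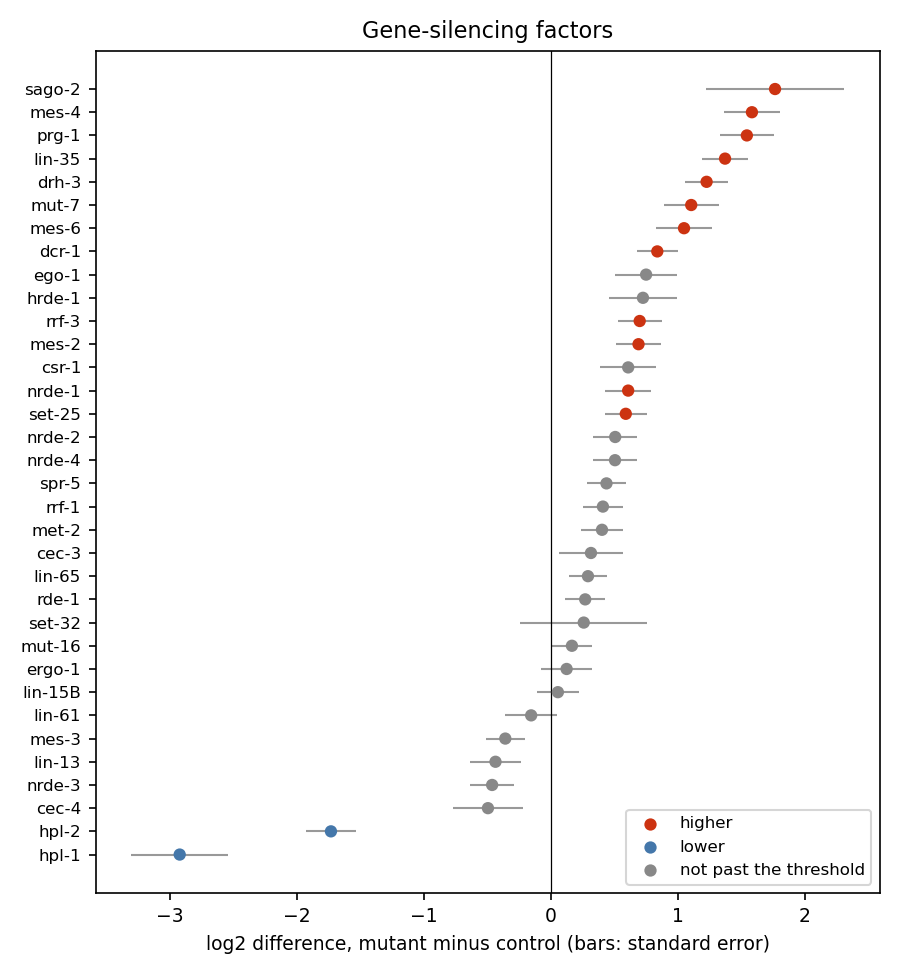
Log2 difference (mutant minus control) with its standard error for the 34 tested genes of the silencing list; red points rose and blue points fell past a limma adjusted p of 0.05, and grey points did not pass. The HP1 genes hpl-1 and hpl-2 stand alone at the lower end, at −2.92 and −1.73.

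Stress and pathogen response genes were a further list, of which 29 of 32 were tested. Of these 3 rose (cul-6, skr-3 and pals-5) and 1 fell (sod-3), with adjusted p from 0.0440 to 0.0496 and a median log2 difference of 0.20, and both counts stand beside 8.46% higher and 11% lower of all tested coding genes. A count of 3 of 29 is near that background. Of the 3, pals-5 had a control mean of 3.14 normalized counts and passed the filter only through its mutant libraries. Leaving out 1 library at a time gave 0 risers in every case except mutant replicate 1, where 3 rose. With the replicate block 5 genes of the list fell.

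Markers show what else the pulled-down nuclei held. The counts of calls below stand beside 8.46% higher and 11% lower of all tested coding genes. The mean log2 level of 30 pan-neuronal genes was 13.34 to 13.70 in the controls and 12.60 to 13.33 in the mutants, and 8 fell and 0 rose. With the replicate block 17 fell. The count was 18 without mutant replicate 1, 4 without mutant replicate 2, 1 without control replicate 2 or mutant replicate 3, and 0 without control replicate 1 or control replicate 3. Muscle markers were also high, at 12.72 to 13.17 in the controls and 12.95 to 13.24 in the mutants, with 1 of 10 higher. The mean of the pharynx markers was higher in every mutant than in every control, at 9.90 to 10.39 in the controls and 10.73 to 10.95 in the mutants, with 3 of 7 past the threshold (myo-1, myo-2 and tnt-4), while ceh-22 and pha-4 had log2 differences of 0.08 and 0.10 (limma adjusted p 0.873 and 0.688). The same held for the mean of the germline markers, at 5.38 to 5.51 and 6.23 to 6.49, with 3 of 9 tested genes past it (glh-2, mex-5 and pos-1), log2 differences of 0.13 for mex-3 and 0.29 for htp-3 that did not pass, and summed levels of 746 to 814 and 1021 to 1449 normalized counts. None of the 10 germline markers was at 0 in all libraries. Intestine markers were at 8.45 to 9.01 in the controls and 8.29 to 8.71 in the mutants and had 0 calls, glia markers at 4.80 to 5.38 and 4.93 to 6.06 with 0 calls, and epidermis markers at 5.22 to 6.17 and 5.42 to 6.55 with 1 call (dpy-5, lower). Sperm markers were at 1.69 to 2.02 and 1.89 to 2.75, with msp-19 and msd-1 at 0 throughout. Over the 7 lists other than the pan-neuronal one, 7 genes rose, against 13 with the replicate block, 0 without control replicate 2 or mutant replicate 3, 1 without control replicate 3, 4 without control replicate 1 or mutant replicate 2 and 11 without mutant replicate 1. The part of pharynx or germline RNA in the rise of the 14 genes was not tested.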

How the data were processed

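Neuronal nuclear RNA of 3 control and 3 mutant samples was analysed, grouped by title. The deposited values are a depth-normalized signal, DESeq2-normalized gene counts with 1 size factor for each library, as the name of the deposited table says. STAR, featureCounts and DESeq2 are named in the submitters' processing notes. Versions, genome build, annotation, strand setting and the treatment of multiply mapping reads are not given in the sources used here, so values of overlapping genes and near-identical copies are uncertain. Every value was a whole multiple of the worth of 1 read (100% of values within 0.01 reads). Dividing by it recovered reads, and 3 reads served as the floor for counting error.

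Of the symbols, 40180 (95.98%) matched the Ensembl annotation of WBcel235 directly, the 14 genes included. It was used for names, biotypes, lengths and gene order, and no coordinates are given. A neighbour listed under another symbol was matched through RefSeq sequence names of the same assembly.

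The test was limma 3.58.1 (R 4.3.3) on log2(normalized count + 1) with a variance trend. Features whose mean reached 10 (17900) were tested, and a Benjamini-Hochberg adjusted p under 0.05 counted as a call. The log2(value + 1) scale understates changes of low genes. Called were 3239 features, 1353 higher and 1886 lower, with 6222 at an unadjusted p under 0.05. On the recovered reads edgeR 4.0.16 called 1582 higher and 1727 lower and DESeq2 1.42.0 2011 and 2214. The limma script was tested on simulated data.

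Deviations of same-numbered samples from their group means correlated at 0.25, 0.20 and 0.15 across tested genes, all above 0.1. The labels state no pairing, so the numbers in the titles were treated as a possible pairing only, and the main fit left it out. The fit with a replicate block is given where it changed a call or moved a count by over 1.5 times. With the block 1988 features were called higher and 2719 lower. The 14 genes and all gene lists were chosen with earlier results of these data known. The rule for naming took the 10 genes with the highest mutant mean, neighbouring pairs and those nearest the limits, which covered all 14, then next-door and overlapping genes, targeted genes and up to 5 called genes per list by adjusted p. A planned search of promoter words was not run.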

Additional observations from a re-analysis of the deposited data

How the results depend on the processing

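The number of genes meeting the limits moved with the limits: it was 9 with a control ceiling of 3, 62 with a ceiling of 10, 31 with a mutant minimum of 10 and 5 with a minimum of 30. Dropping 1 library at a time gave 16 to 35, by construction, since fewer values then had to pass. Equal totals gave 15 (13 of them shared), quantile normalization 11 and equal totals without the 20 highest genes 13. The exchanged limits gave 1, 31, 9 and 10 genes with the ceiling of 3, the ceiling of 10, the minimum of 10 and quantile normalization, and 4 to 10 with 1 library left out, beside 3. The summed mutant level was 793 under equal totals in place of 744, and 719 to 766 with 1 library left out.

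Calls of the 14 genes fell to 3 with a minimum mean of 50, which leaves fewer genes tested, and to 8 to 13 with 1 library left out. Over all genes 2118 rose under equal totals, and 536 to 1595 rose and 864 to 2522 fell with 1 library left out. Equal totals moved the median gene up to 0.15 log2. Next-door risers numbered 1 with the minimum of 50 and 5 with DESeq2, and 2 to 4 with 1 library left out. Next-door genes that fell numbered 1 with the replicate block and 0 to 1 with 1 library left out.

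Genes of the silencing list that rose numbered 21 under equal totals and 7 without a variance trend. They numbered 19 with the replicate block and 7 to 13 with 1 library left out. For stress genes that rose the counts were 0 without a filter, 6 under equal totals, 1 without a trend and 0 to 3 with 1 library left out; for those that fell they were 0 under either form of equal totals, 0 without a trend, 5 with the block and 0 to 2. Pan-neuronal genes that fell numbered 4 after centring on the median gene, 1 without a trend, 17 with the block and 0 to 18. Markers of the 7 other lists that rose numbered 11 under equal totals, 3 without a trend, 13 with the block, 12 with DESeq2 and 0 to 11. Those that fell numbered 0 with the minimum of 50, 3 with the block, 2 with DESeq2 and 1 to 2. The ceh-44 difference was 0.82 without a trend (adjusted p 0.0511) and 0.71 to 0.95 with 1 library left out, and that of ceh-38 −0.92 to −0.72. Why these values moved was not examined; the cause was not tested. The block changed no call among the targeted genes and the 14 genes, and within 5 coding genes of the 14 it gave 15 risers and 4 that fell, in place of 14 and 3. Depth limits the control levels of the 14 genes, which rest on at most 5 reads per library.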

Other observations

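Outside the cosmid-type symbols, 6 of 24303 features met the same limits of at most 5 normalized counts in every control and at least 15 in every mutant: scrm-7, dgn-3, srbc-26, fbxb-35, clec-139 and the piRNA locus 21ur-10512. Of these, fbxb-35 lies within 5 coding genes of F07E5.12, and scrm-7 had the highest mutant values, at 133, 76.4 and 93.7. With the limits exchanged, 16 such features qualified, of which 10 carry chemoreceptor symbols beginning with sr, 4 are piRNA loci and 2 are nuclear hormone receptor genes (nhr-131 and nhr-197). Unnamed genes thus numbered 14 against 3 and other features 6 against 16 for the same limits in the 2 directions. Under quantile normalization these counts were 11 against 10 and 4 against 23. No test was made of these counts.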
